A study of Mus musculus with 9 samples.

Results

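The 5 G protein beta subunit genes, Gnb1, Gnb2, Gnb3, Gnb4 and Gnb5, were followed in splenic B cells from leukemia-model and wildtype animals. They were picked out by name among the 22174 genes of the abundance table. The set was chosen by the level of Gnb3, which was among the largest increases over wildtype in both models, so that increase is given as a description with no test. RNA sequencing covered 9 mice of the strain C57/BL6NTac, 3 in each group. Eµ-MTCP1 animals carried human MTCP1 behind a VH promoter and the IgH Eµ enhancer, which limit the transgene to B cells, and came from the single founder line Z36. Eµ-TCL1 animals carried human TCL1 in the same kind of construct, and wildtype animals carried no transgene. B cells of every mouse were taken from the spleen with a pan B cell isolation kit. Transgenic mice were age-matched with advanced disease, and ages of the sequenced mice were not given in the sources used here.

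G proteins pass signals from cell surface receptors as a complex of an alpha, a beta and a gamma subunit. Receptor activation frees the alpha subunit from the beta-gamma dimer, and both then act on enzymes and ion channels. In B cells, chemokine receptors signal in this way through Gi-type alpha subunits, and beta-gamma dimers can activate PI3K gamma and phospholipase C beta. Gnb1 and Gnb2 encode the widely expressed beta subunits, and Gnb4 encodes a close relative. Gnb3 encodes the beta subunit of cone photoreceptors, ON bipolar cells of the retina and taste cells. Gnb5 encodes the most distant member, which pairs with RGS proteins of the R7 group in place of a gamma subunit.

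The genes lie on separate chromosomes in GRCm38. Gnb1 (ENSMUSG00000029064.15) spans chr4:155491361-155559269 on the plus strand, and Gnb2 (ENSMUSG00000029713.15) spans chr5:137528127-137533510 on the minus strand. Gnb3 (ENSMUSG00000023439.11) spans chr6:124834240-124840275 on the minus strand. Gnb4 (ENSMUSG00000027669.14) spans chr3:32580332-32616585 on the minus strand, and Gnb5 (ENSMUSG00000032192.9) spans chr9:75306288-75345876 on the plus strand. The last 90 coding bases of the main coding form of each gene, stop codon included, are shown because they let a reader see how far reads of these relatives can be told apart. The sequences were read from the genome and annotation given with the data, and capitals mark bases that differ from Gnb1 at the same place.
Gnb1 (Gnb1-202): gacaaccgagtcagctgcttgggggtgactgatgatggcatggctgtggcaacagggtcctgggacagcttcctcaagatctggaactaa
Gnb2 (Gnb2-204): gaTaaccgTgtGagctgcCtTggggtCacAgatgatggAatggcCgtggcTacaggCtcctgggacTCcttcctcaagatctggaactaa
Gnb3 (Gnb3-201): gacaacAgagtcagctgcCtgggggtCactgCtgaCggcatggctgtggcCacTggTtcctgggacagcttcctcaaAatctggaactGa
Gnb4 (Gnb4-205): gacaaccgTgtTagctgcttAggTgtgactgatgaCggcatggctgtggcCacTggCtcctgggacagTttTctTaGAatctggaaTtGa
Gnb5 (Gnb5-206): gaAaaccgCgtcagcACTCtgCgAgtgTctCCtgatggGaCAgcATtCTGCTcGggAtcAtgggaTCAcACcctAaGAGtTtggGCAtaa
Differences from Gnb1 over these 90 bases numbered 13 for Gnb2, 10 for Gnb3, 15 for Gnb4 and 37 for Gnb5. Over the aligned coding sequence, Gnb3 was 76.0% identical to Gnb1, 76.4% to Gnb2, 72.9% to Gnb4 and 64.7% to Gnb5. Runs of 31 bases, the length used for an exact match, were shared only between Gnb2 and Gnb3 among the 10 pairs compared, at 2 positions.

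Depth was 6447542 to 8033303 estimated reads per library on the reference with human sequences added, which is used unless stated, and 11410231 to 14034949 on the standard mouse reference. Human MTCP1 stood at 11.1 to 12.3 in Eµ-MTCP1 animals on the authors' log2 scale, against 5.85 to 6.19 elsewhere, and TCL1A stood at 14.9 to 15.6 in Eµ-TCL1 animals, against 6.04 to 6.96 elsewhere. The summed level of 6 B cell markers was 9120 to 10600 CPM (counts scaled to library size) in Eµ-MTCP1 animals, 6990 to 9290 in Eµ-TCL1 and 8070 to 9260 in wildtype animals. In the same order, sums over 6 myeloid markers were 472 to 792, 140 to 1310 and 737 to 1200 CPM, and sums over 4 plasma cell markers 330 to 2890, 101 to 1950 and 774 to 1300 CPM. Sums over 6 T cell markers did not pass 64.0 CPM and over 5 erythroid and platelet markers 89.4 CPM in any mouse. Their part in the results was not tested. The wildtype mouse Z2755 was read on lane 1 and the other 8 libraries on lane 5, and 80 of 11165 tested genes were at least 4-fold higher in it than in both other wildtype animals, against 18 and 32 genes for the others. At least 4-fold below both others were 16 genes in Z2755, 43 in Z2754 and 37 in Z2785. In bulk RNA a change in the mix of cells and a change of RNA per cell cannot be told apart.

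Gnb3 was nearly silent in wildtype B cells and was among the most abundant beta subunit transcripts in every transgenic mouse. In Eµ-MTCP1 animals Z2551, Z2606 and Z2641, Gnb3 was at 605, 1110 and 235 CPM, from 3687, 7782 and 1424 reads. In Eµ-TCL1 animals B4376, B4437 and C1594 it was at 551, 89.4 and 905 CPM, from 3980, 728 and 6465 reads. In wildtype animals Z2754, Z2755 and Z2785 it was at 0.124, 0.434 and 0.604 CPM, from 1, 4 and 4 reads. All 6 transgenic mice lay far above the 3 wildtype animals, whose values were close to the level that 3 reads give, 0.326 to 0.495 CPM. Within a model the mice were far apart, with Z2641 and B4437 lowest.

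The mean level of Gnb3 was 649 ± 437 CPM (SD, n = 3) in Eµ-MTCP1 animals, 515 ± 409 CPM (SD, n = 3) in Eµ-TCL1 and 0.387 ± 0.244 CPM (SD, n = 3) in wildtype animals. Set against the pooled wildtype rate, that is 9 reads over the 3 libraries together, the mean was 1720 times that rate in Eµ-MTCP1 animals, with a 95% interval of 907 to 3770, and 1370 in Eµ-TCL1 animals, with an interval of 721 to 2990. These intervals cover the counting error of the 9 wildtype reads only, not the spread between mice. By fitted log2 fold change Gnb3 ranked 3 of 11165 tested genes in Eµ-MTCP1 animals, at 10.68, next to Igsf21 at 10.61. In Eµ-TCL1 animals it ranked 4, at 10.35, between Kcnj5 at 10.52 and Krt8 at 10.24. Each fitted value rests on a wildtype group near 0 reads and has no precise size.

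The models were compared with each other for Gnb3, a contrast that did not choose it. Gnb3 in Eµ-TCL1 minus Eµ-MTCP1 was -0.33 on the log2 scale (SE 0.70, adjusted p = 0.954 by edgeR's quasi-likelihood test with Benjamini-Hochberg adjustment), with a 95% interval of -1.90 to 1.23. Mice of both models overlapped over most of their range. The interval leaves room for a difference of more than 2-fold either way, and the sign turned when Z2606 (0.29) or B4437 (0.17) was left out. Of all 11165 tested genes, 0.0269% were higher and 0.0179% lower in this contrast, and of the 5 beta subunit genes 0 passed in either direction, and 0 by DESeq2. At an unadjusted p under 0.05 were 0 of the 5, beside 717 of all tested genes.

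**Figure D1:**
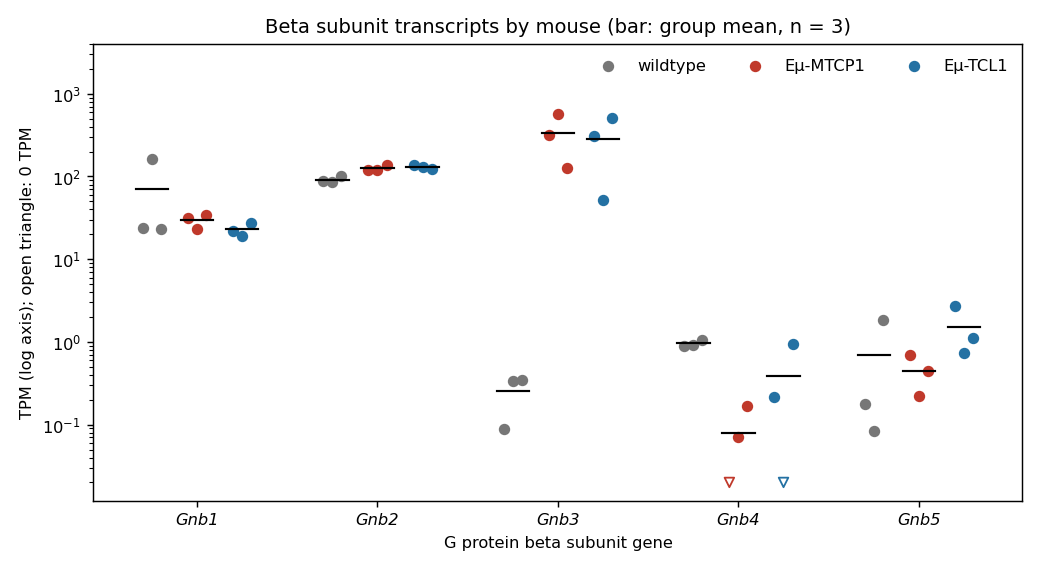
Level in TPM (log axis) of each beta subunit gene in each mouse, with wildtype in grey, Eµ-MTCP1 in red and Eµ-TCL1 in blue; horizontal bars are group means of 3 mice and open triangles mark 0 TPM. Gnb3 lay at 52.3 to 569 TPM in the 6 transgenic mice and at 0.0893 to 0.347 TPM in wildtype animals, and Gnb1 was high in a single wildtype mouse, at 162 TPM.

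Gnb2, the other abundant member, was higher in Eµ-MTCP1 than in wildtype animals, by a far smaller amount than Gnb3, and Eµ-TCL1 animals lay close to the threshold. Gnb2 was at 178, 176 and 188 CPM in Eµ-MTCP1 animals Z2551, Z2606 and Z2641, and at 175, 164 and 167 CPM in Eµ-TCL1 animals B4376, B4437 and C1594. Wildtype mice Z2754, Z2755 and Z2785 were at 87.0, 81.2 and 136 CPM. No wildtype mouse reached the lowest transgenic mouse, and the transgenic mice lay close together. Gnb2 was 1.79-fold higher in Eµ-MTCP1 than in wildtype animals (log2 fold change 0.84, SE 0.21, adjusted p = 0.03 by edgeR). In Eµ-TCL1 animals the fold was 1.67 (log2 fold change 0.74, SE 0.21) and just missed the threshold, with an adjusted p of 0.051 by edgeR. The models differed by -0.10 on the log2 scale (SE 0.20, edgeR adjusted p = 0.95), with a 95% interval of -0.55 to 0.35.

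Gnb2 was thus the 1 of 4 tested members that rose in Eµ-MTCP1 animals, where 5.49% of all tested genes were higher and 3.99% lower, and 0 of 4 fell. In Eµ-TCL1 animals 0 of 4 passed by edgeR, where 5.07% of all tested genes were higher and 4.13% lower. At an unadjusted p under 0.05, 1 of 4 passed there, beside 2800 of 11165 tested genes. By DESeq2 1 of 4 was higher there, beside 924 of 11112 genes. Each time it was Gnb2. The call in Eµ-MTCP1 animals held in 11 of 18 alternatives. It was lost without wildtype mouse Z2755 (0.67, adjusted p = 0.124) or Z2754 (0.73, adjusted p = 0.122), and without Z2551 (0.85, adjusted p = 0.0807), Z2606 (0.82, adjusted p = 0.058) or Z2641 (0.78, adjusted p = 0.0647). Without wildtype mouse Z2785, Gnb2 passed in Eµ-TCL1 animals too (1.0, adjusted p = 0.0112).

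Gnb1 did not pass in either model, and a single wildtype mouse held most of the wildtype reads. Gnb1 was at 65.3, 48.6 and 71.8 CPM in Eµ-MTCP1 animals Z2551, Z2606 and Z2641, and at 44.0, 37.2 and 54.6 CPM in Eµ-TCL1 animals B4376, B4437 and C1594. Wildtype mice Z2754, Z2755 and Z2785 were at 37.5, 217 and 44.0 CPM. Z2755 stood alone above all 8 other mice, and the other wildtype animals lay within the transgenic range. The log2 fold change was -0.68 in Eµ-MTCP1 (SE 0.56, edgeR adjusted p = 0.482) and -1.14 in Eµ-TCL1 animals (SE 0.57, edgeR adjusted p = 0.247). Without Z2755 the values were 0.58 (adjusted p = 0.255) and 0.12 (adjusted p = 0.836), so the direction turned in both. The models differed by -0.45 (edgeR adjusted p = 0.907), with a 95% interval of -1.70 to 0.80. Gnas, which encodes the Gs alpha subunit, was high in the same mouse, at 5518 reads against 1226 and 1373 in the other wildtype animals.

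Gnb4 was scarce in all mice, and its reads were fewest in Eµ-MTCP1 animals. On the reference with human sequences, Eµ-MTCP1 animals Z2551, Z2606 and Z2641 held 0, 1 and 2 reads, Eµ-TCL1 animals B4376, B4437 and C1594 held 3, 0 and 13, and wildtype animals Z2754, Z2755 and Z2785 held 11, 12 and 13. All 3 Eµ-MTCP1 animals were below all 3 wildtype animals, and C1594 was level with wildtype. The mean of wildtype animals was 9.87 times the pooled rate of Eµ-MTCP1 animals, 3 reads over 3 libraries, with a counting interval of 3.38 to 47.9. The log2 fold change was -3.16 in Eµ-MTCP1 (SE 1.33, edgeR adjusted p = 0.173) and -1.05 in Eµ-TCL1 animals (SE 1.11, edgeR adjusted p = 0.61). The models differed by 2.11 (edgeR adjusted p = 0.845), with a 95% interval of -0.91 to 5.14. With 1 animal left out the values ran from -4.10 to -2.64 in Eµ-MTCP1 animals, from -2.83 (without C1594) to -0.48 (without B4437) in Eµ-TCL1 animals, and from 0.33 (without C1594) to 3.02 (without Z2641) between the models, and none passed.

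The standard reference, which holds whole transcripts and not mainly coding sequence, gave more Gnb4 reads. They were 3, 4 and 8 in Eµ-MTCP1 animals, 6, 8 and 15 in Eµ-TCL1 animals and 49, 28 and 29 in wildtype animals, in the same order. On this reference the 6 transgenic mice were all below the 3 wildtype animals. Gnb4 passed the filter on low counts mainly through the wildtype animals, where it was highest, and a gene that passes in this way had to differ, so its values are given as a description. The log2 fold change was -2.50 in Eµ-MTCP1 animals (SE 0.62, edgeR adjusted p = 0.0324) and -1.70 in Eµ-TCL1 animals (SE 0.59, edgeR adjusted p = 0.104). The authors' whole counts gave -2.37 (edgeR adjusted p = 0.0396) in Eµ-MTCP1 animals.

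Gnb5 was at the edge of detection and showed no difference past the threshold. Eµ-MTCP1 animals Z2551, Z2606 and Z2641 held 8, 3 and 5 reads, Eµ-TCL1 animals B4376, B4437 and C1594 held 35, 12 and 17, and wildtype animals Z2754, Z2755 and Z2785 held 2, 1 and 22. The wildtype animals spanned the range of both models, apart from B4376. The log2 fold change was -0.48 in Eµ-MTCP1 (SE 1.13, edgeR adjusted p = 0.821) and 1.27 in Eµ-TCL1 animals (SE 1.07, edgeR adjusted p = 0.505). The difference between the models was 1.75 (SE 1.11, edgeR adjusted p = 0.842), with a 95% interval of -0.70 to 4.20. Without wildtype mouse Z2785, which held most of the wildtype reads, the value was 2.17 in Eµ-MTCP1 and 3.92 in Eµ-TCL1 animals, and with 1 animal left out the range in Eµ-TCL1 animals was 0.68 to 3.92 (adjusted p 0.0664 to 0.79).

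**Figure D2:**
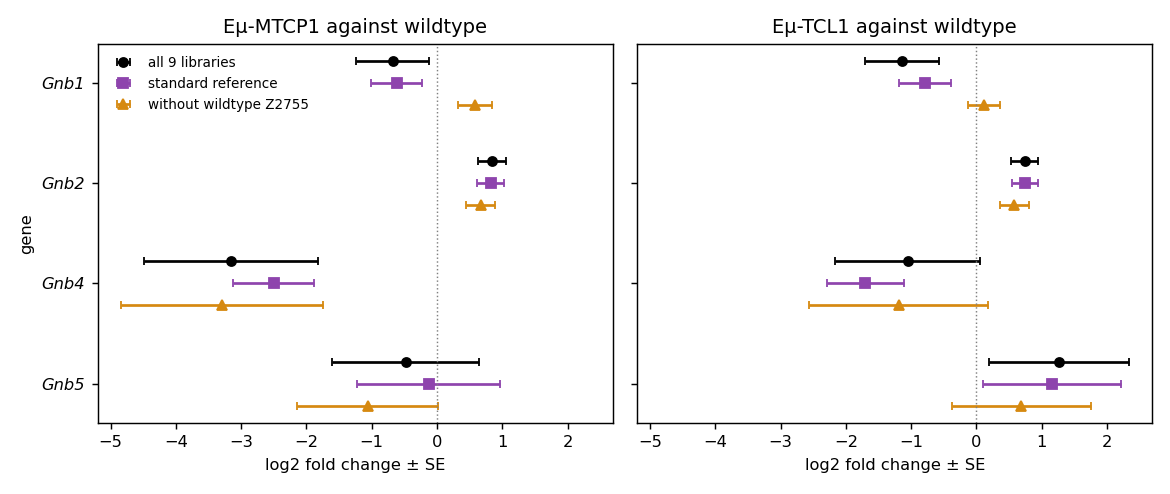
Log2 fold change against wildtype (horizontal axis, bars ± SE) of the members other than Gnb3, for Eµ-MTCP1 (left) and Eµ-TCL1 animals (right), with all 9 libraries (black), on the standard reference (purple) and without wildtype mouse Z2755 (orange). Gnb2 stayed above 0 in each, at 0.58 to 0.84, Gnb4 stayed below 0, and Gnb1 crossed 0 when Z2755 was left out.

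The authors' own noise filter, which leaves the count of a gene empty in a library where its reads do not pass, separated the members as well. It kept Gnb1 and Gnb2 in 3 of 3 libraries of each group and Gnb3 in 3 of 3 libraries of each model and 2 of 3 wildtype libraries. Gnb4 was kept in 0 Eµ-MTCP1, 1 Eµ-TCL1 and 3 wildtype libraries, and Gnb5 in 2, 3 and 1.

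The TPM scale, which accounts for transcript length, allowed levels to be set beside each other across genes. In wildtype animals the order was Gnb2 at 91.2 TPM, Gnb1 at 69.7, Gnb4 at 0.962, Gnb5 at 0.698 and Gnb3 at 0.256. Gnb1 and Gnb2 overlapped in that order because of Z2755, and Gnb4 and Gnb5 because of Z2785, where Gnb5 was at 1.83 TPM. Gnb5 and Gnb3 overlapped too, with Gnb3 at 0.333 and Gnb5 at 0.0837 TPM in Z2755. In Eµ-MTCP1 animals the order was Gnb3 at 337 TPM, Gnb2 at 126, Gnb1 at 29.7, Gnb5 at 0.451 and Gnb4 at 0.0787. In Eµ-TCL1 animals it was Gnb3 at 288, Gnb2 at 130, Gnb1 at 22.9, Gnb5 at 1.53 and Gnb4 at 0.390, with Gnb5 and Gnb4 overlapping. Gnb3 and Gnb2 overlapped in both models, since Gnb3 was at 125 TPM in Z2641 and 52.3 TPM in B4437.

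The summed beta subunit transcripts were larger in most transgenic mice, and Gnb3 took a large part of it. The sum was 470, 713 and 300 TPM in Eµ-MTCP1 animals Z2551, Z2606 and Z2641, 470, 202 and 656 TPM in Eµ-TCL1 animals B4376, B4437 and C1594, and 113, 249 and 127 TPM in wildtype animals Z2754, Z2755 and Z2785. Only B4437 lay within the wildtype range, and it did so through Z2755 alone, being above both other wildtype mice. Gnb3 held 67.6, 79.9 and 41.8% of the sum in Eµ-MTCP1 animals and 65.2, 25.9 and 76.8% in Eµ-TCL1 animals, in the same order, against at most 0.273% in wildtype animals. With Gnb3 left out, the sum was 143 to 175 TPM in Eµ-MTCP1 animals, 150 to 163 TPM in Eµ-TCL1 and 113 to 249 TPM in wildtype animals. All 6 transgenic values then lay inside the wildtype range, whose upper end was Z2755 alone, and above both other wildtype animals, at 113 and 126 TPM. On the standard reference they were at 136 to 181 TPM, against 127, 227 and 135 TPM in wildtype animals Z2754, Z2755 and Z2785.

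Among those 4 genes, Gnb2 held a mean of 82.4% of the summed TPM in the 6 transgenic mice and 63.9% in the 3 wildtype animals, a difference of 18.5 percentage points (exact two-sided permutation test, p = 0.0476, adjusted p = 0.0952 over 4 shares). Gnb1 held 16.8 against 34.9% (exact permutation p = 0.0952, adjusted p = 0.127) and Gnb4 0.150 against 0.670% (exact permutation p = 0.0476, adjusted p = 0.0952). The share of Gnb4 is a description. It rests on 0 to 13 reads per transgenic mouse, and the gene passed the filter on low counts mainly through wildtype animals. Gnb5 held 0.628 against 0.547% (exact permutation p = 0.857). No share passed after adjustment, and the smallest p this design allows is 0.0238. The wildtype mean of Gnb1 rested on Z2755, and without it the difference in the share of Gnb2 shrank to 3.8 percentage points.

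**Figure D3:**
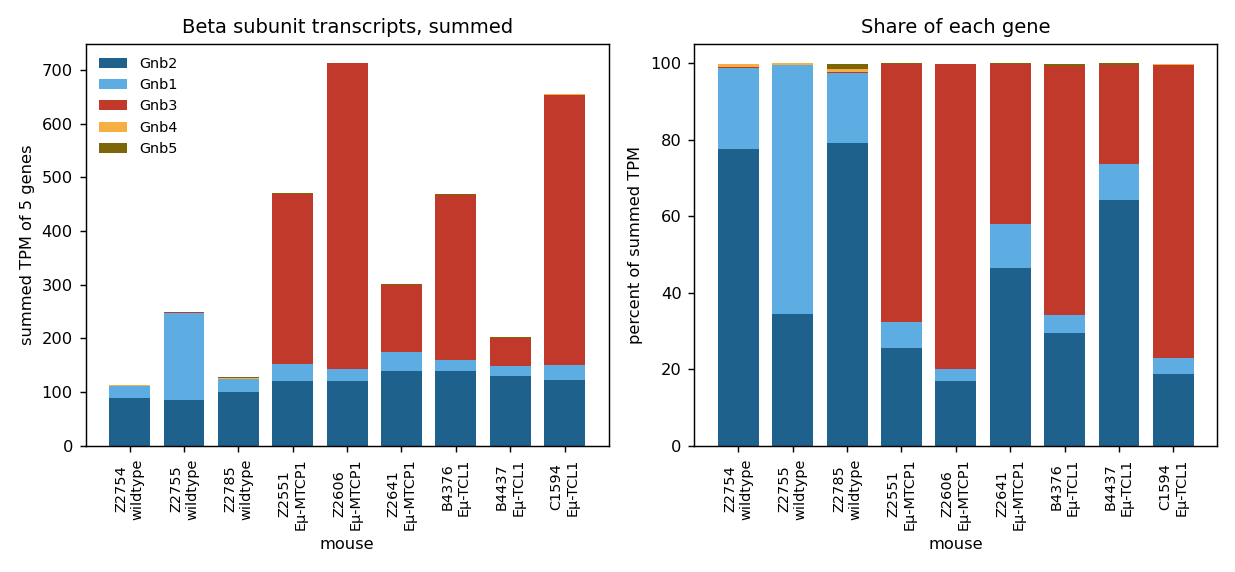
Summed TPM of the 5 beta subunit genes in each mouse (left) and the percent of that sum from each gene (right), with Gnb3 in red. Gnb3 held 25.9 to 79.9% in transgenic mice, and Gnb1 held 65.1% in wildtype mouse Z2755 against 18.2 and 21.2% in the other wildtype animals.

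The transcript forms were examined on the standard reference, which lists 44 forms of the 5 genes, 4 of them of Gnb3. Reads of Gnb3 in transgenic mice were split between the coding form Gnb3-201, with 10 exons and 1846 bases, and Gnb3-202, a form annotated as a retained intron with 9 exons and 1779 bases. The forms share 1521 bases, and the 258 bases of Gnb3-202 that Gnb3-201 lacks are the whole of intron 2, at chr6:124839406-124839663. The sequence around both ends of that intron is shown on the minus strand of GRCm38, since these bases separate the forms, and capitals mark the intron.
Intron 2 start, chr6:124839634-124839693: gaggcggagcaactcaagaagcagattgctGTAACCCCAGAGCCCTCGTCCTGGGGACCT
Intron 2 end, chr6:124839376-124839435: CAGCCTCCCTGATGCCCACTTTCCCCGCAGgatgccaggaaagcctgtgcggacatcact
The intron opens with GT and closes with AG, the usual ends of a spliced intron, and coding sequence stands on either side.

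Gnb3-201 took 35.8, 47.9 and 40.6% of Gnb3 reads in Eµ-MTCP1 animals Z2551, Z2606 and Z2641, and 53.9, 42.1 and 50.9% in Eµ-TCL1 animals B4376, B4437 and C1594. Gnb3-202 took 57.1, 46.1 and 51.6% in Eµ-MTCP1 animals and 41, 52.2 and 43.7% in Eµ-TCL1 animals, in the same order. The coding form led in 3 of 6 mice, and the forms were farthest apart in Z2551, where all forms other than the coding one took 64.2%. The mean share of the coding form was 49.0 ± 6.13% (SD, n = 3) in Eµ-TCL1 and 41.4 ± 6.09% (SD, n = 3) in Eµ-MTCP1 animals, a difference of 7.53 percentage points (exact two-sided permutation test, p = 0.2, with 0.1 the smallest p that 3 against 3 allows). The remaining forms were minor. Gnb3-203, which also holds intron 2, took 3.14 to 4.79% and Gnb3-204 1.89 to 3.85%. The split is an estimate by Salmon from overlapping forms, and no read positions were analysed here. In wildtype animals, with 4 to 10 Gnb3 reads on this reference, no split was given.

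**Figure D4:**
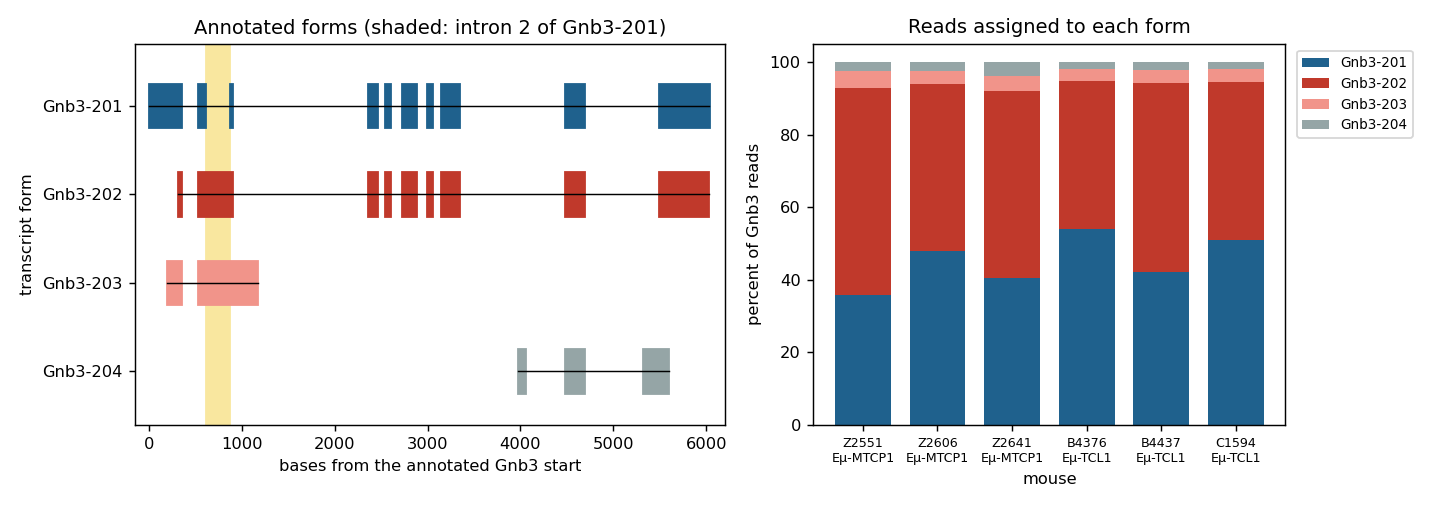
Left, exons of the 4 annotated Gnb3 forms against distance in bases from the annotated gene start, with intron 2 of Gnb3-201 shaded; right, percent of Gnb3 reads assigned to each form in the 6 transgenic mice. The coding form Gnb3-201 (blue) took 35.8 to 53.9% and Gnb3-202 (red), which spans the shaded intron, took 41 to 57.1%.

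Forms of the other members gave no difference past the threshold. Gnb1-202, the leading Gnb1 form, held a mean of 36.3% of Gnb1 TPM in transgenic and 47.4% in wildtype animals (exact permutation p = 0.238, adjusted p = 0.262). The difference of -11.1 percentage points was -2.86 without wildtype mouse Z2754 and -17.7 without Z2755. Gnb2-204, the leading Gnb2 form, held 48.1 and 41.5% (exact permutation p = 0.262, adjusted p = 0.262). The difference of 6.62 percentage points was 9.94 without Z2641 (exact permutation p = 0.0357, adjusted p = 0.0714), and on the reference with human sequences Gnb2-204 held 17.3 and 16.7%. Wildtype mouse Z2755 stood apart here as well. The coding form Gnb1-203 took 1024 reads, or 27.0% of Gnb1 reads, in Z2755 and 0 in the other 8 mice, whereas Gnb1-208 took 0 in Z2755 and 208 to 331 in the other 8. Gnb4 and Gnb5 had too few reads for a test of forms.

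Partners and relatives of the beta subunits were taken as 6 lists of 67 genes, covering alpha and gamma subunits, chaperones, effectors, R7 RGS genes and WD repeat genes with Gnb names, of which 42 were tested. In Eµ-MTCP1 animals 3 of 42 were higher than in wildtype animals and 0 lower, where 5.49% of all tested genes were higher and 3.99% lower. In Eµ-TCL1 animals 4 of 42 were higher and 0 lower, where 5.07% of all tested genes were higher and 4.13% lower. By DESeq2 5 were higher and 1 lower in Eµ-MTCP1 animals, and 6 higher and 1 lower in Eµ-TCL1 animals. Over all 11112 genes DESeq2 called 933 higher and 713 lower, and 924 and 771, in the same order. The genes tested include Gng13, Gng3 and Kcnj5, which passed the filter on low counts only through the transgenic mice, where they were high, and genes that pass in this way had to differ. Without these 3 genes, 1 and 2 of 39 were higher, and the median log2 fold change was 0.05 in Eµ-MTCP1 animals and 0.20 in Eµ-TCL1 animals, beside -0.02 and -0.01 over all tested genes. Between the models 0 of 42 passed by edgeR and 0 by DESeq2, and 4 were at an unadjusted p under 0.05, beside 717 of 11165 tested genes. Of the 12 genes for gamma subunits, the direct partners of beta subunits, 7 were tested, and 0 of the 5 besides Gng13 and Gng3 passed in either model by edgeR or DESeq2. At an unadjusted p under 0.05 were 0 and 1 of these 5, beside 2788 and 2800 of 11165 tested genes.

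Gng13 encodes a gamma subunit known from taste cells and the retina, where it is found with Gnb3. It had 185, 414 and 309 reads in Eµ-MTCP1 animals Z2551, Z2606 and Z2641, 202, 129 and 494 in Eµ-TCL1 animals B4376, B4437 and C1594, and 1, 0 and 2 in wildtype animals Z2754, Z2755 and Z2785. As with Gnb3, every transgenic mouse lay far above every wildtype mouse, and B4437 was the lowest of the 6. The fitted log2 fold change was 8.34 in Eµ-MTCP1 (edgeR adjusted p = 0.000342) and 8.03 in Eµ-TCL1 animals (edgeR adjusted p = 0.000351), given as a description because of the way the gene passed the filter. Set against the pooled wildtype rate, 3 reads over the 3 libraries, the means were 372 times that rate with a counting interval of 127 to 1810, and 300 times with an interval of 103 to 1450. Gng13 differed by -0.31 between the models (edgeR adjusted p = 0.932).

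Gng13 also held a large share of gamma subunit transcripts in transgenic mice. On the standard reference it held 19.9, 37.1 and 33.2% of the summed gamma subunit TPM in Eµ-MTCP1 animals and 22, 13.2 and 33.4% in Eµ-TCL1 animals, against at most 0.259% in wildtype animals. Gng3, a gamma subunit known from neurons, was far lower. It had 31, 72 and 14 reads in Eµ-MTCP1 animals, 41, 15 and 16 in Eµ-TCL1 animals and 0, 4 and 0 in wildtype animals, in the same order. Its fitted log2 fold change, also a description, was 5.06 (edgeR adjusted p = 0.0179) and 4.21 (edgeR adjusted p = 0.0377), and against the pooled wildtype rate of 4 reads the means were 35.1 times that rate with a counting interval of 13.7 to 129 and 19.4 times with an interval of 7.59 to 71.3. With 1 library left out its adjusted p was above 0.05 without Z2606, Z2754 or Z2785 in Eµ-MTCP1 animals (0.052 to 0.0748), and without Z2551, B4376, C1594, Z2754 or Z2785 in Eµ-TCL1 animals (0.0592 to 0.122). The gamma genes Gng2, Gng5, Gng10, Gng12 and Gngt2 did not pass in either model.

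The summed TPM of each kind of subunit was set side by side on the standard reference. Beta subunits summed to 502 ± 194 TPM in Eµ-MTCP1 animals, 451 ± 224 TPM in Eµ-TCL1 and 163 ± 55.2 TPM in wildtype animals (SD, n = 3 each), a gap that lies in Gnb3, which was chosen for its difference. Gamma subunits summed to 825 ± 31.6, 933 ± 188 and 725 ± 69.5 TPM, and alpha subunits to 700 ± 23.8, 725 ± 95.6 and 821 ± 194 TPM, in the same order (SD, n = 3 each). These sums were not tested or ranked.

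Of 16 alpha subunit genes 9 were tested, and 0 passed in either model by edgeR. At an unadjusted p under 0.05 were 2 in Eµ-MTCP1 animals and 1 in Eµ-TCL1 animals, beside 2788 and 2800 of 11165 tested genes. By DESeq2 Gnai2 was higher in Eµ-MTCP1 animals, beside 933 of 11112 genes, and Gna15 lower in Eµ-TCL1 animals, beside 771. Gnai2, the Gi alpha subunit of lymphocytes, averaged 1090 CPM in Eµ-MTCP1 animals, 998 in Eµ-TCL1 and 748 in wildtype animals (edgeR adjusted p = 0.121 and 0.223). Gna13 averaged 67.5, 64.3 and 102 CPM (edgeR adjusted p = 0.268 and 0.219). Gnat3, the taste cell alpha subunit gustducin that acts with Gnb3 and Gng13, had 0 to 5 reads in any mouse. Values of Gnat1 are uncertain, since it took 6050 to 11023 reads on the reference with human sequences and 17 to 70 on the standard reference.

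Of 12 genes for the folding of G protein subunits 11 were tested. Cct5, a subunit of the chaperonin that folds beta subunits, rose in both models, by 0.82 (edgeR adjusted p = 0.0247) and 0.95 (edgeR adjusted p = 0.0127), from a wildtype mean of 598 CPM. The call was lost in Eµ-MTCP1 animals without Z2551, Z2641 or any 1 of the wildtype animals (0.75 to 0.87, adjusted p 0.0504 to 0.0986), and in Eµ-TCL1 animals without Z2754 or Z2755 (0.88 and 0.94, adjusted p 0.059 and 0.0552). In Eµ-MTCP1 animals it was also lost with library size scaling alone (0.59, edgeR adjusted p = 0.0832). The same held on the standard reference without Z2755 (0.84, edgeR adjusted p = 0.0897). The other 7 chaperonin genes, Tcp1, Cct2, Cct3, Cct4, Cct6a, Cct7 and Cct8, had group means of 149 to 481 CPM and did not pass by edgeR. By DESeq2 Cct5 passed in both models, and Cct3 passed in Eµ-TCL1 animals as well (0.54, DESeq2 adjusted p = 0.00145, against 0.0569 by edgeR). Ric8a, a chaperone of alpha subunits, averaged 113, 139 and 113 CPM in Eµ-MTCP1, Eµ-TCL1 and wildtype animals and did not pass. Of 19 genes for effectors and kinases that bind beta-gamma dimers 12 were tested, and in Eµ-MTCP1 animals 0 passed by edgeR. At an unadjusted p under 0.05 were 3 of these, beside 2788 of 11165 tested genes. By DESeq2 1 was higher and 1 lower, beside 933 and 713 of 11112 genes. Pik3r6, a regulatory subunit of PI3K gamma, rose by 1.84 in Eµ-TCL1 animals (edgeR adjusted p = 0.0334) and was at 1.36 in Eµ-MTCP1 animals (edgeR adjusted p = 0.0985). That call was lost without B4376, B4437, Z2754 or Z2785 (1.51 to 1.89, adjusted p 0.0825 to 0.11). It was also lost with library size scaling alone (1.69, edgeR adjusted p = 0.055) and on the standard reference without Z2755 (2.22, edgeR adjusted p = 0.0651). Pik3r5, the other regulatory subunit, averaged 65.4, 51.5 and 32.1 CPM in Eµ-MTCP1, Eµ-TCL1 and wildtype animals and did not pass (edgeR adjusted p = 0.15 and 0.331). The catalytic subunit gene Pik3cg averaged 49.9, 51.6 and 45.7 CPM and Plcb2, a phospholipase C that beta-gamma dimers activate, 83.9, 98.9 and 99.4 CPM, and neither passed. Adcy7, an adenylyl cyclase of blood cells, averaged 333, 245 and 326 CPM, Grk2, a receptor kinase that beta-gamma dimers recruit, 438, 272 and 307 CPM, and Prex1, a Rac exchange factor, 162, 128 and 135 CPM, and none of these passed. Kcnj5, a potassium channel that beta-gamma dimers open, had 0, 32 and 0 reads in Eµ-MTCP1 animals, 398, 3 and 144 in Eµ-TCL1 animals and 0 in each wildtype mouse, and passed the filter on low counts only through the transgenic mice. Its adjusted p of 0.259 and 0.0557 by edgeR, and of 0.0305 by DESeq2 in Eµ-TCL1 animals, is a description. Of the 6 R7 RGS partners of Gnb5 only Rgs11 was tested and did not pass. Rack1, a WD repeat protein of the ribosome, averaged 3410, 3290 and 2150 CPM (edgeR adjusted p = 0.191 and 0.225). Neither it nor Gnb1l, the other gene of its list, passed by edgeR or DESeq2. At an unadjusted p under 0.05 were 1 and 0 of these 2, beside 2788 and 2800 of 11165 tested genes.

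Genes that mark the cells where Gnb3 is known were measured as well, as a list of 8. Tas1r3, a taste receptor subunit, had 174, 151 and 60 reads in Eµ-MTCP1 animals Z2551, Z2606 and Z2641, 151, 66 and 111 in Eµ-TCL1 animals B4376, B4437 and C1594, and 26, 16 and 17 in wildtype animals Z2754, Z2755 and Z2785. The groups did not overlap, and Tas1r3 rose by 2.99 (edgeR adjusted p = 0.00476) and 2.56 (edgeR adjusted p = 0.0098). The second call was lost without Z2755 (2.31, adjusted p = 0.0532), and also on the standard reference without that mouse (2.47, edgeR adjusted p = 0.0614). Trpm5, a cation channel of taste cells, had 257, 174 and 9 reads in Eµ-MTCP1 animals, 202, 377 and 564 in Eµ-TCL1 animals and 23, 26 and 28 in wildtype animals, in the same order. Trpm5 rose by 3.95 in Eµ-TCL1 animals (edgeR adjusted p = 0.0192) and was at 2.79 in Eµ-MTCP1 animals (edgeR adjusted p = 0.0694), where Z2641 lay below wildtype and without it the value was 3.32 (adjusted p = 0.0022). In Eµ-MTCP1 animals Trpm5 passed in 4 of 18 alternatives, DESeq2 among them (2.77, DESeq2 adjusted p = 0.00295). Grm6, a glutamate receptor of ON bipolar cells, had 19 to 39 reads in wildtype animals and 0 to 7 in transgenic mice (-5.07 in Eµ-TCL1 animals, edgeR adjusted p = 0.0228), and passed the filter on low counts only through the wildtype animals, so it had to differ. With 1 library left out the Trpm5 call in Eµ-TCL1 animals was lost without C1594 or any 1 of the wildtype animals (3.49 to 4.16, adjusted p 0.0548 to 0.094), and the Grm6 call without any 1 of the 6 mice compared (-5.44 to -4.59, adjusted p 0.0541 to 0.0828). The Trpm5 call was also lost on the standard reference without Z2755 (4.04, edgeR adjusted p = 0.0804). Opn1sw and Pde6h, cone photoreceptor genes of the list, were at 0 reads in all 9 mice on the reference with human sequences, and at 0 to 15 and 0 to 6 reads on the standard reference. Prdm1, a plasma cell regulator among the 4 plasma cell markers, rose by 2.11 (edgeR adjusted p = 0.0227) and 1.83 (edgeR adjusted p = 0.0401), in 4 and 5 of 9 fits with 1 library left out not past the threshold, among them those without Z2551, Z2754 and Z2755. Both calls were also lost on the standard reference without Z2755 (2.01 and 1.71, edgeR adjusted p = 0.0918 and 0.14). With length offsets the call in Eµ-TCL1 animals was lost too (1.8, edgeR adjusted p = 0.0515). The other 3 plasma cell markers did not pass, with Sdc1 at 0.87 and 0.14, Xbp1 at 0.21 in both and Jchain at 0.52 and -0.43. The list, its taste and retina genes together, summed to 12.6 to 71.2 CPM in Eµ-MTCP1 animals, 49.0 to 94.5 CPM in Eµ-TCL1 and 8.90 to 9.79 CPM in wildtype animals.

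**Figure D5:**
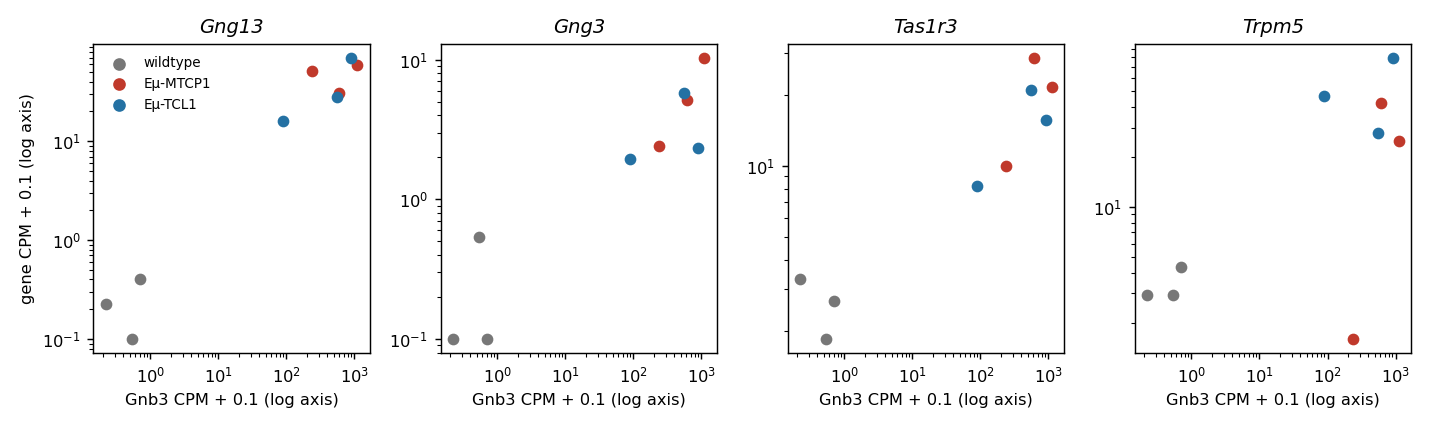
Level of Gng13, Gng3, Tas1r3 and Trpm5 (vertical, CPM + 0.1, log axis) against Gnb3 (horizontal, CPM + 0.1, log axis) in each mouse, with wildtype in grey, Eµ-MTCP1 in red and Eµ-TCL1 in blue. Transgenic mice lay at the upper right for Gng13, Gng3 and Tas1r3, and 1 Eµ-MTCP1 mouse, with 9 reads of Trpm5, lay below wildtype for that gene.

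Across the 6 transgenic mice, levels of Gnb3 and its partners on the log2 CPM scale were compared as a description, since the points share libraries and depth. Pearson's r with Gnb3 was 0.82 for Tas1r3, 0.72 for Gng13, 0.68 for Gng3 and 0.27 for Trpm5, and Spearman's rank correlation was 0.71, 0.77, 0.60 and 0.03. For Gnb2 r was 0.16 and the rank correlation 0.14. Of these 5 genes, Gnb2 and Trpm5 had the lowest values. The genes most like Gnb3 over all 9 mice, out of 8964 with a mean of at least 5 CPM, were Tnrc6b (r = 0.991), Zbtb32 (0.990), Ahnak2 (0.990), Diras2 (0.990) and Nid1 (0.989). The 9 mice fell into a wildtype and a transgenic cluster, so these values mostly follow that gap. Ahnak2 averaged 320, 321 and 2.18 CPM in Eµ-MTCP1, Eµ-TCL1 and wildtype animals, and Zbtb32, a zinc finger transcription factor, 420, 460 and 15 CPM. Over the 6 transgenic mice alone, out of 8880 genes, the most like were Siglecg (r = 0.990), Inpp4b (0.989), Tmem39a (0.985), Pigb (0.984) and Il6ra (0.984), none of which was on the first list. They are the extremes of 8880 genes ranked on 6 mice. How high r reaches by chance in such a ranking was not tested.

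The genes beside Gnb3 on chromosome 6 showed far smaller differences. Of 17 neighbours 11 were tested, and 2 rose in Eµ-MTCP1 animals and 1 in Eµ-TCL1 animals, beside 5.49% and 5.07% of all tested genes. By DESeq2 3 and 2 were higher, beside 933 and 924 of 11112 genes, and 0 neighbours were lower by either tool. Cdca3, which lies 539 bases away and encodes a cell division protein, rose by 2.09 in Eµ-MTCP1 animals (edgeR adjusted p = 0.0368) and was at 0.94 in Eµ-TCL1 animals (edgeR adjusted p = 0.302). The Cdca3 call was lost without Z2551, Z2641 or any 1 of the wildtype animals (1.17 to 2.31, adjusted p 0.0571 to 0.151). It was also lost with library size scaling alone (1.83, edgeR adjusted p = 0.0561) and on the standard reference without Z2755 (2.21, edgeR adjusted p = 0.0859). P3h3, 814 bases away on the other side, had 0 to 5 reads in any mouse and was not tested. Tpi1, an enzyme of glycolysis 19944 bases away, rose by 1.33 (edgeR adjusted p = 0.0023) and 1.07 (edgeR adjusted p = 0.00686). Usp5, 4756 bases away, averaged 109, 117 and 85.1 CPM in Eµ-MTCP1, Eµ-TCL1 and wildtype animals and did not pass. Mlf2, Emg1, Phb2 and Ptpn6, with group means of at least 92 CPM, did not pass. Across the 6 transgenic mice, r with Gnb3 was -0.51 for Cdca3 and -0.03 for Tpi1, with rank correlations of -0.71 and 0.26.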

How the data were processed

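B cells were measured by RNA sequencing in 3 mice per group, grouped by the transgene in the labels. The authors ran Salmon 1.0.0 on a standard mouse reference and on a reference with human sequences added, and deposited estimated counts and TPM per transcript. The labels name a build (GRCm38.p4). The authors deposited whole read counts per gene, and the same counts after their CLEAR noise filter; per the submitters' notes HISAT2 2.0.6 and featureCounts are among the tools, and the strand setting is not given in the sources used here. The authors also deposited a log2-like abundance table, used here only for gene names and the transgenes; its fold changes and p-values were not used. The reference with human sequences holds mostly coding sequence, 87.3% of its lengths being multiples of 3, so TPM is per coding length there.

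Estimated counts of a gene's transcripts were added up and rounded to whole numbers. Genes passing filterByExpr (minimum count 10) numbered 11165 of 22154. All 9 libraries entered 1 edgeR 4.0.16 quasi-likelihood fit with TMM scaling, with Benjamini-Hochberg adjustment over all tested genes and a threshold of 0.05. The SE of an edgeR value was derived from its log2 fold change and F statistic. Its 95% interval was built from that SE, so both are approximate. Up to 442 transcripts, or 0.291% of reads in a library, had no gene in the annotation. Shares were compared by exact two-sided permutation tests. Named genes were the 5 members, list genes that passed or averaged at least 50 CPM in a group, and the 5 genes most like Gnb3 over all mice and over transgenic mice; genes of the cell marker lists were mostly given as sums. Outside this rule, Igsf21, Krt8, Gnat3, Gna15, Kcnj5, P3h3, Rgs11, Gnb1l, Opn1sw, Pde6h, Sdc1, Gng2, Gng5, Gng10, Gng12 and Gngt2 were named after their values were seen. The members, lists and tests were chosen with earlier results of these data known. The fit was tested on simulated data. The 18 alternatives were DESeq2 1.42.0, RLE size factors, library size scaling, no filter, length offsets, no immunoglobulin genes, the standard reference with and without the library on its own lane, the whole counts and each of the 9 mice left out. Mice are separate animals; p-values measure the spread between them, and counting intervals cover counting error only.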

Additional observations from a re-analysis of the deposited data

How the results depend on the processing

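Of the values and counts that answer a comparison, 176 with 1 animal left out and 140 under other settings were unchanged. For a value this means the same direction and side of the threshold, also where it passed in neither fit. For a count of list genes it means a number close to that of the main fit. Those that changed follow. Gnb2 in Eµ-MTCP1 animals missed the threshold with library size scaling alone (0.62, edgeR adjusted p = 0.0626) and on the standard reference without the wildtype library read on its own lane (0.68, adjusted p = 0.142), an alternative chosen after seeing the data. Leaving out 1 animal gave 0.67 to 1.10 (adjusted p 0.00761 to 0.124). Gnb2 in Eµ-TCL1 animals passed with DESeq2 (0.72, adjusted p = 0.0147), the standard reference (0.75), the whole counts (0.73) and length offsets (0.75), and leaving out 1 animal gave 0.58 to 1.0. Gnb4 in Eµ-MTCP1 animals had an adjusted p under the threshold on the standard reference (-2.50) and the whole counts (-2.37), where the filter on low counts kept it mainly through wildtype animals. Gnb1 turned positive in Eµ-MTCP1 animals on the standard reference without that library (0.14), and leaving out 1 animal gave -1.08 to 0.58 in Eµ-MTCP1 animals and -1.53 to 0.12 in Eµ-TCL1 animals. Gnb5 in Eµ-MTCP1 animals was at 0.09 with the whole counts and at -1.06 to 2.17 with 1 animal left out. Between the models, leaving out 1 animal gave -1.02 to 0.29 for Gnb3, -1.10 to 0.05 for Gng13 and -0.68 to 0.34 for Prdm1. The difference in the share of Gnb5 was -0.176 to 0.531 percentage points, turning negative without Eµ-TCL1 animal B4376 (-0.127), wildtype Z2754 (-0.114) or Z2755 (-0.176). In the 6 lists of partners and the list of neighbours on the chromosome together, 5 of 53 tested genes passed in each model, all higher. Over all tested genes, 5.49% and 5.07% were higher and 3.99% and 4.13% lower. The 5 include Gng13 and Gng3, which passed the filter on low counts only through transgenic mice. The count was 9 and 9 with DESeq2, where 933 and 713, and 924 and 771, of 11112 genes were higher and lower. It was 8 and 8 with the whole counts, where 849 and 613, and 849 and 610, of 14567 were. It was 3 in Eµ-MTCP1 animals on the standard reference without the lane library, where 368 and 291 of 15373 were. With 1 animal left out it was 2 to 5 in Eµ-MTCP1 animals and 2 to 8 in Eµ-TCL1 animals. All genes past the threshold then numbered 525 to 1028 and 517 to 1240. The cause of these changes was not tested. Over all genes, 613 were higher and 446 lower in Eµ-MTCP1 animals and 566 and 461 in Eµ-TCL1 animals, against 391 and 730, and 446 and 593, with library size scaling alone, which shifted the median of all genes by -0.24 and -0.14. DESeq2 called 933 and 713, and 924 and 771. Between the models 3 and 2 passed, against 40 and 33 with DESeq2. Few reads limit Gnb4 and Gnb5, for Gnb5 beside the spread between wildtype animals, and the level of Gnb3 and Gng13 in wildtype mice.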
